A study of Homo sapiens with 8 samples.

Results

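The 50 genes described here encode the chaperones of the cytosol and mitochondria, the partners that drive them and the transcription factors HSF1 and HSF2 that act on them. They were taken by symbol from the deposited gene counts, where all 50 of 50 were found among 23710 genes. They fall into 9 HSP70 and HSP110 genes, 10 genes of HSP90 and its cochaperones, 11 J proteins, 6 nucleotide exchange factors, 10 chaperonin subunits, HSPB1 with HSPB11, and HSF1 with HSF2. After a filter on low counts 49 of the 50 were tested, among 12536 genes. BAG3 was left out with 0 to 14 reads per library. The RNA came from lymphoblastoid cells, a human B cell line immortalised with Epstein-Barr virus, exposed to 5 µM hexavalent chromium (Cr(VI)), an oxidising metal that damages DNA. The groups were control cells, cells at 24 h of Cr(VI), and cells 3 days and 7 days post treatment, with 2 libraries each. All groups share 1 cell line and medium. The controls were taken before exposure, so exposure and time in culture cannot be told apart. The labels call the replicates biological without naming separate cultures, so p-values measure only the spread between these samples.

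Heat shock chaperones bind unfolded segments of other proteins and use ATP to let them fold. HSP70 is loaded by J proteins and emptied by nucleotide exchange factors, HSP90 takes over partly folded clients such as kinases and steroid receptors, and the chaperonins enclose a client in a barrel. When unfolded protein accumulates, HSF1 trimers bind heat shock elements, repeats of a short unit in alternating orientation, and genes such as HSPA1A, HSPA1B, DNAJB1, HSPB1, HSPH1 and BAG3 are the textbook targets in human cells.

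Gene counts summed to 9478459 to 11110830 per library. B lymphocyte markers were present, with 12 of 12 reaching 10 CPM (reads per 1000000 gene reads, after TMM scaling of library sizes) and a summed level of 4734 to 7673 CPM. T and NK markers reached 10 CPM for 0 of 9 genes (1.23 to 4.01 CPM summed), stromal or epithelial markers for 0 of 8 (4.42 to 13.0 CPM), and myeloid markers for 1 of 8, ITGAM (5.18 to 14.3 CPM). All 5 erythroid markers were at 0. The libraries did not sort by group alone. Replicates of a group differed by 22.6 to 88.4 units of chi-square per degree of freedom, whereas 4 pairs from different groups differed by 4.33 to 6.17. Those pairs were control replicate 1 with 24 h replicate 2, control replicate 2 with 24 h replicate 1, and, by equal replicate number, each 3 day library with a 7 day library. The 3 day and 7 day replicate 1 libraries also stood apart in RNA make-up. Their 20 highest genes took 12.54% and 12.5% of gene counts, against 8.884% to 9.645% in the other 6, and the median of 35 ribosomal protein genes lay 1.05 and 0.98 log2 units above its mean over libraries, against -0.55 to -0.16.

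No chaperone gene passed the test in any comparison. The call rule was an adjusted p under 0.05 by edgeR's quasi-likelihood test with Benjamini-Hochberg adjustment over all 12536 genes. At 24 h against control 0 of 49 members were called, as were 0% of all genes. At 3 days and 7 days against control the count was 0 of 49 again, beside 0% of all genes each time, and 7 days against 3 days gave 0 of 49 beside 0%. With both late groups set against control and 24 h together, 0 of 49 were called and 0.00798% of all genes, which is 1 gene. Before adjustment, 0 members had a p under 0.05 at 24 h, beside 0.0877% of all genes higher and 0.0877% lower. At 3 days 1 was higher (beside 2.15%) and 0 lower (beside 3.13%), and at 7 days 0 were higher (beside 1.85%) and 0 lower (beside 3.09%). Between 7 and 3 days 0 were higher (beside 0.0957%) and 0 lower (beside 0.152%). Late against early, 5 were higher (beside 6.94%) and 0 lower (beside 7.24%). DESeq2 and limma-voom called 0 members in each comparison. The differences below are therefore given as values, with the libraries behind them.

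The heat shock element was searched in the 250 bases before each RefSeq start (GRCh38.p14), where 44 of the 50 genes had an entry. HSPA14, FKBP4, STUB1, BAG4, CCT6A and HSF1 had no match. A run of 3 units, GAANNTTCNNGAA or TTCNNGAANNTTC, was found before HSPA8, CHORDC1 and DNAJB6, or 6.82% of the 44, and before 0.439% of 27305 promoters. At least 2 units, GAANNTTC or TTCNNGAA, lay before 9 of the 44 (20.5%), against 11.7% of all promoters; every run of 3 units holds overlapping runs of 2. The 9 were HSPA1A, HSPA1B, HSPA8, CHORDC1, DNAJA1, DNAJB6, BAG2, TCP1 and HSPB1. Both strands were read for each motif. The 6 stretches printed here belong to HSPA8 and DNAJB6, which hold a run of 3 units, to the inducible HSPA1A, HSPA1B and HSPB1, and to DNAJA1, the most abundant J protein. They are cut where an annotated exon begins, with the units in capitals. The full HSPA8 window held 2 runs of 3 units, of which the printed 51 bases show 1.
HSPA1A, chr6:31815293-31815463, plus strand: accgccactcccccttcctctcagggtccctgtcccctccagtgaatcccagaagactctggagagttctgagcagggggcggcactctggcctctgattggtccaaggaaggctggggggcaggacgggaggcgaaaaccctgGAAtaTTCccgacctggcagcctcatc
HSPA1B, chr6:31827488-31827734, plus strand: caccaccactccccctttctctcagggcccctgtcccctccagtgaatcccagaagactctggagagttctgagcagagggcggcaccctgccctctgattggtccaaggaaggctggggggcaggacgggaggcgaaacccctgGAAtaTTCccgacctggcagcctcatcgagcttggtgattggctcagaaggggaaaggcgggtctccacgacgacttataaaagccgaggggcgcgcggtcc
HSPA8, chr11:123062336-123062386, minus strand: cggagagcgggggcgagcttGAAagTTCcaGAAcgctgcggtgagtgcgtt
DNAJB6, chr7:157336754-157336965, plus strand: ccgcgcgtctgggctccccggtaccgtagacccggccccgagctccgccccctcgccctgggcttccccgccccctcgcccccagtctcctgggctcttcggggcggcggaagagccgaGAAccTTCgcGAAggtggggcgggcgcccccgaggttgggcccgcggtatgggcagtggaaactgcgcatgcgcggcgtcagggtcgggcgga
DNAJA1, chr9:33025023-33025210, plus strand: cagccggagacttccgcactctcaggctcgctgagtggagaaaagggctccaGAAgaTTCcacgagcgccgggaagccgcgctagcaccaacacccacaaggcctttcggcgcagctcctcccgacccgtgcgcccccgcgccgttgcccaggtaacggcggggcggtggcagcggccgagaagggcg
HSPB1, chr7:76302423-76302543, plus strand: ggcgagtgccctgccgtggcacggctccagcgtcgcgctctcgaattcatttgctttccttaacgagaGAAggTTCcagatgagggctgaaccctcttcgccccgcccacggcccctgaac

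The HSPA1A and HSPA1B windows were identical at 235 of 251 aligned columns (93.6%), and both hold the unit pair inside the same block, gGAAtaTTCccgacctggcagcctcatc. A match is a description of letters and not evidence of binding. Members with at least 2 units had a median log2 fold change of 0.04 at 24 h against control (5 of 9 above 0), while the 34 tested members without one had -0.03 (12 of 34 above 0). At 3 days the medians were -0.16 (4 of 9) and 0.28 (31 of 34), and at 7 days 0.16 (5 of 9) and 0.32 (31 of 34). DNAJB1 and HSPH1, textbook targets of HSF1, were among the members without 2 units in this window. The split was not repeated without both late replicate 1 libraries, which left 21 of 49 members above 0 at 3 days. The difference between the promoter classes was not tested.

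HSPA8, the constitutive cytosolic HSP70, was the most abundant member of all. It had 2944 and 1684 CPM in control libraries, 1414 and 3056 CPM at 24 h, 3306 and 1796 CPM at 3 days, and 3577 and 1941 CPM at 7 days. Each group held 1 high and 1 low library, and the groups overlapped. The log2 fold change at 24 h against control was -0.05, with a 95% interval of -1.21 to 1.11 that includes a 2-fold change either way. HSPA8 made up 54.0% to 67.7% of the CPM of its class. With HSP90AA1 and HSP90AB1 it made up 41.2% to 46.7% of the CPM of all 50 genes.

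The inducible HSP70 genes were far lower. HSPA1A, the stress-inducible HSP70, had 2.28 and 1.43 CPM in control libraries, 2.11 and 1.30 CPM at 24 h, 0.925 and 1.43 CPM at 3 days, and 1.55 and 1.11 CPM at 7 days, from 9 to 26 reads. HSPA1B, which encodes the same protein, had 17.5 and 14.2 CPM in control libraries, 13.97 and 13.1 CPM at 24 h, 8.53 and 15.3 CPM at 3 days, and 15.9 and 13.5 CPM at 7 days. Both 24 h libraries lay below both control libraries for HSPA1B, by a narrow margin, and the log2 fold change was -0.23 ± 0.32 (SE, n = 2 per group; 95% interval -0.97 to 0.51). Since this pair is near-identical, reads may be split between the copies or discarded, and each level is uncertain. Per kilobase of transcript, the level of HSPA8 was 104 to 397 times that of HSPA1B.

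HSPA9, the mitochondrial HSP70 that pulls imported chains into the matrix, had 507 and 409 CPM in control libraries, 384 and 506 CPM at 24 h, 571 and 448 CPM at 3 days, and 651 and 471 CPM at 7 days. Its log2 fold change was -0.04 ± 0.27 at 24 h and 0.29 ± 0.27 at 7 days against control, with overlapping libraries. HSPH1, an HSP110 that acts as an exchange factor for HSP70, was lowest in the late replicate 2 libraries. It had 523 and 446 CPM in control libraries, 358 and 579 CPM at 24 h, 444 and 315 CPM at 3 days, and 567 and 345 CPM at 7 days. Both 3 day libraries were below both control libraries, 1 of them narrowly, with a log2 fold change of -0.35 ± 0.34.

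HSPA14, the HSP70 of the ribosome-bound complex that meets new chains, had the highest ratio of its class between its highest and lowest libraries, 3.07. It had 59.7 and 51.6 CPM in control libraries, 41.5 and 61.8 CPM at 24 h, 127 and 50.1 CPM at 3 days, and 108 and 57.7 CPM at 7 days. Only the late replicate 1 libraries exceeded 100 CPM. DNAJC2, the J protein of the same complex, had 61.7 and 57.4 CPM in those libraries, and 30.5 to 34.9 CPM in the other 6. 

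HSPA4L, another HSP110, had 44.1 and 51.4 CPM in control libraries, 52.2 and 54.3 CPM at 24 h, 33.0 and 45.1 CPM at 3 days, and 41.4 and 49.4 CPM at 7 days. Its 24 h libraries were above both controls, by a narrow margin, with a log2 fold change of 0.16 ± 0.24. HSPA13, an HSP70 relative of the endoplasmic reticulum, had 80.6 and 98.0 CPM in control libraries, 109 and 97.5 CPM at 24 h, 86.1 and 132 CPM at 3 days, and 102 and 118 CPM at 7 days. Here the late replicate 2 libraries were the highest pair, unlike in HSPA8, HSPA9 and HSPA14. HSPA4, the third HSP110 gene, had 239.6 to 313 CPM. The median log2 fold change of the 9 genes was -0.05 at 24 h, 0.00 at 3 days and 0.04 at 7 days, and the 3 day and 7 day medians turned to -0.04 and -0.02 under upper-quartile scaling. Above 0 were 3, 5 and 5 of the 9. Without both late replicate 1 libraries the medians were -0.14 at 3 days (1 of 9 above 0) and -0.13 at 7 days (4 of 9).

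**Figure D1:**
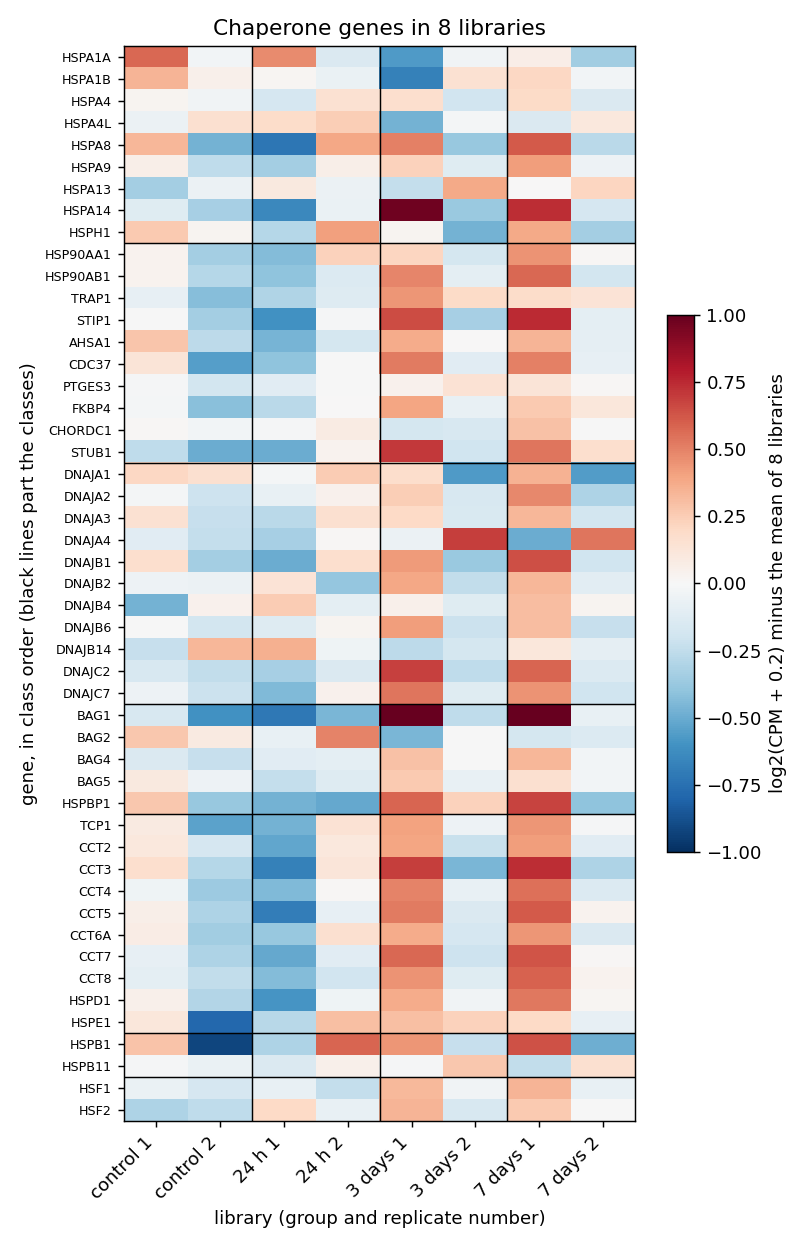
Heat map of the 49 tested genes (rows, by class) in the 8 libraries (columns), coloured by log2(CPM + 0.2) minus the gene's mean over libraries, with the scale limited to -1 and 1. Most rows of the chaperonins and of HSP90 with its cochaperones are above their mean in the 3 day and 7 day replicate 1 libraries. Many rows are lowest in 24 h replicate 1.

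The 10 genes of HSP90 and its cochaperones had medians of 0.04 at 24 h, 0.36 at 3 days and 0.39 at 7 days against control on the log2 scale. The inducible cytosolic form HSP90AA1 had 2254 and 1744 CPM in control libraries, 1630.1 and 2586 CPM at 24 h, 2559.8 and 1947 CPM at 3 days, and 3013 and 2222 CPM at 7 days. The constitutive form HSP90AB1 had 2181 and 1748 CPM in control libraries, 1609.5 and 1931 CPM at 24 h, 2988 and 1992 CPM at 3 days, and 3174 and 1876 CPM at 7 days. At 7 days the log2 fold changes were 0.39 ± 0.32 for HSP90AA1 and 0.36 ± 0.34 for HSP90AB1, and for each gene the 7 day and control libraries overlapped. Per kilobase, the ratio of HSP90AA1 to HSP90AB1 was 0.678 to 1.06, lowest in 3 day replicate 1 and highest in 24 h replicate 2. Pseudogenes were counted only by names built on a member's own symbol, so reads lost to other copies leave this ratio uncertain.

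TRAP1, the mitochondrial HSP90, had the smallest p of any member both at 3 days against control and late against early. It had 85.0 and 66.9 CPM in control libraries, 73.0 and 82.4 CPM at 24 h, 122 and 103 CPM at 3 days, and 102 and 98.9 CPM at 7 days. All 4 late libraries exceeded all 4 early ones. The log2 fold change was 0.57 ± 0.21 at 3 days against control, and its adjusted p = 0.843 by edgeR's quasi-likelihood test (0.0294 before adjustment). Late against early groups gave 0.47 ± 0.15, with an adjusted p = 0.284 by the same test. Without both late replicate 1 libraries the value was 0.40 ± 0.16. Of the annotated TRAP1 exon bases, 28% overlap DNASE1 on the other strand, and without a stated strand setting reads there cannot be assigned.

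Among the cochaperones, PTGES3 (p23), which holds HSP90 in its closed state, varied least, with a ratio of 1.26 between its highest and lowest libraries. It had 740.1 and 657 CPM in control libraries, 689.8 and 745 CPM at 24 h, 769.7 and 827 CPM at 3 days, and 817 and 752 CPM at 7 days. Its 4 late libraries were also above its 4 early ones, by a log2 fold change of only 0.16 ± 0.15. STUB1, the ubiquitin ligase CHIP that marks clients for degradation, had 7.91 and 6.65 CPM in control libraries, 6.63 and 9.67 CPM at 24 h, 15.5 and 8.21 CPM at 3 days, and 13.8 and 10.7 CPM at 7 days. Its late against early value was 0.64 ± 0.27 with an adjusted p = 0.344 by edgeR's quasi-likelihood test, and 0.28 ± 0.23 without both late replicate 1 libraries. JMJD8 overlaps 42.6% of its exon bases. CHORDC1, a zinc-binding HSP90 partner with a 3-unit element, had 98.9 and 96.3 CPM in control libraries, 97.4 and 104 CPM at 24 h, 86.8 and 88.2 CPM at 3 days, and 120.4 and 97.8 CPM at 7 days. Its 3 day libraries were the lowest pair of the 8, at -0.16 ± 0.20 against control. AHSA1, which speeds the ATP cycle of HSP90, had 68.3 and 47.1 CPM in control libraries, 40.8 and 50.03 CPM at 24 h, 73.1 and 56.5 CPM at 3 days, and 71.2 and 53.0 CPM at 7 days. Its 24 h value, -0.34 ± 0.28, had the smallest p of the class in that comparison, with overlapping libraries. STIP1, the HOP bridge between HSP70 and HSP90, had 95.5 and 102 CPM in the late replicate 1 libraries and 39.8 to 60.5 CPM elsewhere.

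J proteins had medians of -0.01, 0.16 and 0.25 at 24 h, 3 days and 7 days against control, and 9 of 11 were above 0 at 3 days and at 7 days. Without both late replicate 1 libraries the sign turned, to -0.11 at 3 days and -0.13 at 7 days, with 3 of 11 above 0 each time. DNAJA1, the most abundant, feeds clients to HSP70. It had 538 and 523 CPM in control libraries, 462 and 558 CPM at 24 h, 528 and 315 CPM at 3 days, and 594 and 318 CPM at 7 days. The late replicate 2 libraries were the lowest of the 8, as for HSPH1, and the late replicate 1 libraries lay near the early ones. Relative to HSPA8, the per-kilobase level of DNAJA1 was 0.165 to 0.181 in the late libraries and 0.189 to 0.338 in the early ones, a ratio chosen after its values were seen and not tested.

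DNAJB1, the inducible J partner of HSP70, had 44.6 and 31.4 CPM in control libraries, 28.1 and 44.7 CPM at 24 h, 53.5 and 30.7 CPM at 3 days, and 62.2 and 34.7 CPM at 7 days. The 24 h value against control was -0.06 ± 0.40 and the 7 day value 0.35 ± 0.40, with overlapping libraries. DNAJA2, a relative of DNAJA1, had 192 and 169 CPM in control libraries, 186 and 201 CPM at 24 h, 231 and 175 CPM at 3 days, and 273 and 157 CPM at 7 days, so replicates were further apart late than early.

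DNAJB4 had 24.5 and 35.2 CPM in control libraries, 40.7 and 31.9 CPM at 24 h, 35.4 and 31.4 CPM at 3 days, and 42.3 and 34.8 CPM at 7 days. Its log2 fold changes against control, 0.28 ± 0.26 at 24 h and 0.37 ± 0.26 at 7 days, had the smallest p of the class there, and the libraries overlapped. DNAJB14, which sits in the membrane of the endoplasmic reticulum, had 78.0 and 116 CPM in control libraries, 117 and 88.9 CPM at 24 h, 76.6 and 81.0 CPM at 3 days, and 99.3 and 86.3 CPM at 7 days. Its 7 day libraries lay above its 3 day ones, at 0.24 ± 0.26. The other members ran from DNAJA4 at 1.77 to 4.28 CPM to DNAJB6 at 107 to 168 CPM.

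**Figure D2:**
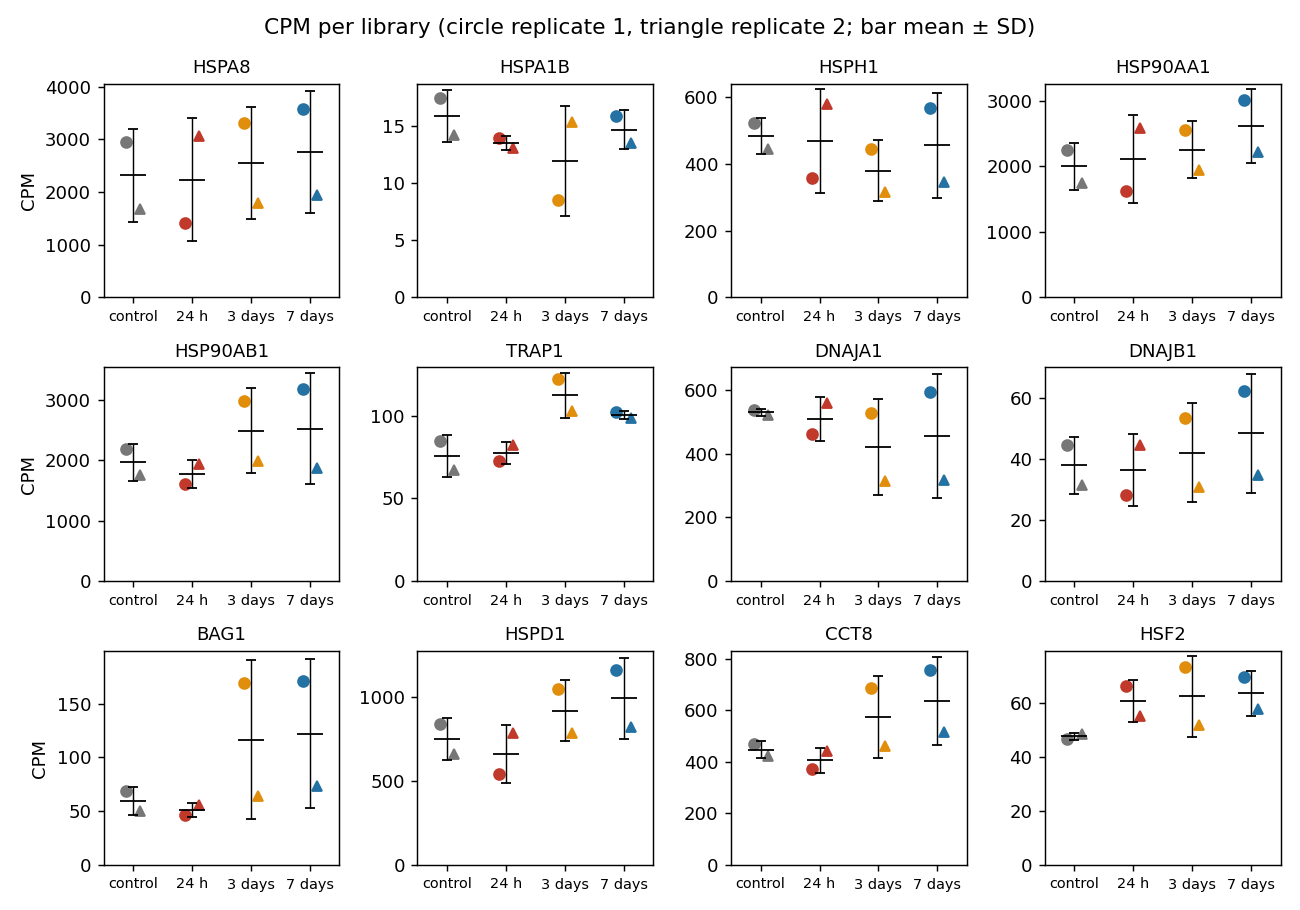
CPM of 12 members in each library (circles replicate 1, triangles replicate 2) with group means and SD (bars, n = 2), control to 7 days from left to right. The replicates of HSPA8 lie far apart in every group, while the 4 late TRAP1 libraries, at 98.9 to 122 CPM, lie above the early ones at 66.9 to 85.0 CPM.

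BAG1, an exchange factor that also binds the proteasome, had the largest late value of all members. It had 68.9 and 50.5 CPM in control libraries, 46.8 and 56.0 CPM at 24 h, 169 and 64.4 CPM at 3 days, and 171 and 73.2 CPM at 7 days. Late against early groups gave a log2 fold change of 1.11 ± 0.36, with an adjusted p = 0.291 by edgeR's quasi-likelihood test. Its late replicate 1 libraries set that size, and without them the value was 0.31 ± 0.18. With no filter on low counts BAG1 was called in that contrast, at an adjusted p = 0.012 by the same test. It was then 1 of 489 genes called among 18243.

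BAG2, which restrains CHIP, was the only member below both controls at both 3 and 7 days. It had 60.8 and 53.7 CPM in control libraries, 47.9 and 71.5 CPM at 24 h, 36.7 and 50.3 CPM at 3 days, and 44.6 and 46.0 CPM at 7 days. Both late groups lay below both controls, at -0.40 ± 0.27 for 3 days and -0.34 ± 0.27 for 7 days, and 42.7% of its exon bases overlap RAB23. BAG4, a silencer of death receptors that binds HSP70, had 70.02 and 65.8 CPM in control libraries, 71.7 and 72.3 CPM at 24 h, 94.97 and 77.2 CPM at 3 days, and 97.4 and 76.0 CPM at 7 days. All 6 exposed libraries were above both controls, narrowly so at 24 h, a pattern whose share over all genes was not counted. Late against early gave 0.30 ± 0.15, with the late replicate 1 libraries highest. BAG5 had 60.9 and 65.6 CPM at 24 h, against 77.0 and 69.2 CPM in control libraries, a log2 fold change of -0.21 ± 0.21. HSPBP1, which promotes release of nucleotide from HSP70, had 6.68 and 4.20 CPM in control libraries, 3.92 and 3.81 CPM at 24 h, 8.33 and 6.51 CPM at 3 days, and 8.95 and 4.12 CPM at 7 days. At -0.49 ± 0.44 it had the largest 24 h difference of all tested members, and both 24 h libraries were below both controls. BAG3, the exchange factor of the heat shock response, gave 3 and 0 reads in control libraries, 0 and 9 at 24 h, 14 and 4 at 3 days, and 8 and 8 at 7 days. Taking 3 counts as the most that a count of 0 allows, the limit was 0.307 CPM in control replicate 2 and 0.302 CPM in 24 h replicate 1, for counting error only.

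Among the chaperonins all 10 had log2 fold changes above 0 at 3 days and at 7 days against control, with medians of 0.35 and 0.41, and the 24 h median was -0.12. Over all genes 51.2% and 50.1% were above 0 at 3 and 7 days. Without both late replicate 1 libraries 5 of 10 were above 0 at 3 days and 7 of 10 at 7 days. The ring TRiC, which folds actin and tubulin, has 8 subunits here, TCP1 and CCT2 to CCT8. The sum of the 8 was 3487 and 2733 CPM in control libraries, 2438 and 3480.4 CPM at 24 h, 4747 and 3065 CPM at 3 days, and 4978 and 3257 CPM at 7 days. The highest pair of libraries was the late replicate 1 pair for 8 of 8 subunits. No subunit was called.

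CCT6A had the highest CPM, at 682 and 509.7 in control libraries, 499 and 724 at 24 h, 839 and 576 at 3 days, and 879.6 and 587 at 7 days. CCT8 had 471 and 425 CPM in control libraries, 373 and 441 CPM at 24 h, 688 and 464 CPM at 3 days, and 757 and 515 CPM at 7 days. Its 7 day libraries exceeded both controls; the late against early value was 0.50 ± 0.20 with an adjusted p = 0.33 by edgeR's quasi-likelihood test, and 0.20 ± 0.15 without both late replicate 1 libraries. CCT7 had 342 and 293 CPM in control libraries, 255 and 335 CPM at 24 h, 539.9 and 313 CPM at 3 days, and 561 and 366 CPM at 7 days, so its 7 day libraries too exceeded both controls. CCT3 spread most, with 398 and 411 CPM in the late replicate 1 libraries and 154 to 277 CPM elsewhere. Per kilobase, the subunits differed by 2.37-fold to 2.98-fold within a library, with CCT8 highest on average at 258 and CCT5 lowest at 105 CPM per kilobase. These ranks rest on the transcript lengths used, 3675 bases for CCT5 and 2005 for CCT8. By mean CPM, CCT3 was lowest at 261, and CCT5 had 385. Each assembled ring holds equal copies of each subunit, but RNA levels do not show protein amounts.

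**Figure D3:**
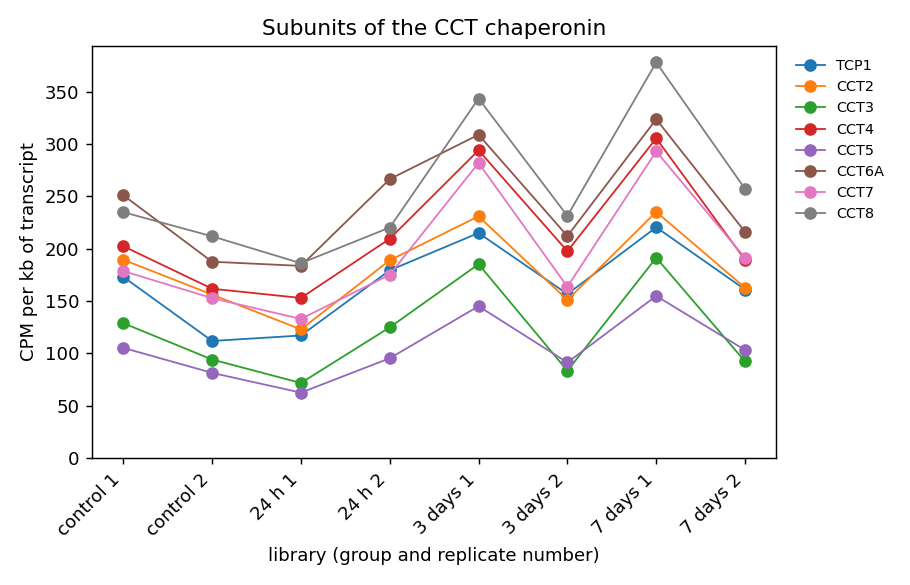
Level per kilobase of the 8 TRiC subunits in each library, each line 1 subunit and the libraries ordered by group. All 8 peak in the 3 day and 7 day replicate 1 libraries, and the subunits keep a 2.37-fold to 2.98-fold spread within each library.

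HSPD1 (HSP60), the barrel of the mitochondrial chaperonin, had 839 and 663 CPM in control libraries, 540.5 and 787 CPM at 24 h, 1048 and 790.5 CPM at 3 days, and 1167 and 822 CPM at 7 days. Its log2 fold change was -0.18 ± 0.30 at 24 h and 0.40 ± 0.30 at 7 days. HSPE1 (HSP10), its lid, had 19.7 and 10.4 CPM in control libraries, 15.0 and 22.4 CPM at 24 h, 22.4 and 21.4 CPM at 3 days, and 20.9 and 17.2 CPM at 7 days. Both 3 day libraries exceeded both controls, with 0.54 ± 0.35. The per-kilobase ratio of HSPD1 to HSPE1 was 13.6 to 24.6. HSPE1 shares 35% of its exon bases with HSPD1 and HSPE1-MOB4 and has 26 pseudogenes named after it, HSPD1 and HSPA8 have 17 each, and reads lost to such copies make these levels and the ratio uncertain.

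HSPB1 (HSP27), a small heat shock protein that holds unfolded chains, was at the low end in this cell line. It had 2.37 and 0.921 CPM in control libraries, 1.51 and 2.98 CPM at 24 h, 2.67 and 1.61 CPM at 3 days, and 3.09 and 1.31 CPM at 7 days. HSPB11, which despite its name belongs to the intraflagellar transport machinery, had 36.1 and 43.7 CPM at 3 days, narrowly above 35.9 and 34.7 CPM in control libraries. HSF1, the master factor of the response, had 18.8 and 17.5 CPM in control libraries, 18.7 and 16.6 CPM at 24 h, 24.8 and 19.2 CPM at 3 days, and 24.96 and 18.7 CPM at 7 days. HSF2, its partner in mixed trimers, had 46.7 and 48.5 CPM in control libraries, 66.2 and 55.0 CPM at 24 h, 73.1 and 51.8 CPM at 3 days, and 69.4 and 57.6 CPM at 7 days. All 6 exposed libraries were above both controls for HSF2, a pattern whose share over all genes was not counted. The log2 fold changes were 0.35 ± 0.24, 0.39 ± 0.24 and 0.41 ± 0.24 in time order, with adjusted p of 1, 0.843 and 0.851 by edgeR's quasi-likelihood test. Without both late replicate 1 libraries the median of the 2 heat shock factors was 0.11 at 3 days and 0.16 at 7 days. HSF1 acts after its activation in protein, which RNA levels do not show.

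Members whose libraries did not overlap between groups were counted beside all genes. At 24 h, 3 members lay above both controls (6.12%, beside 11.4% of all genes) and 3 below (beside 12.5%). At 3 days 9 lay above (18.4%, beside 16.7%) and 4 below (beside 17.2%). At 7 days 11 lay above (22.4%, beside 16.6%) and 1 below (2.04%, beside 17.9%), namely BAG2. Between 7 and 3 days, CHORDC1 and DNAJB14 lay above (beside 5.24%), and HSPE1 and TRAP1 below (beside 6.41%). In the late against early contrast, BAG4, PTGES3 and TRAP1 lay above (6.12%, beside 5.93%) and 0 lay below (beside 7.43%). The 5 members with an unadjusted p under 0.05 there were BAG1, CCT7, CCT8, STUB1 and TRAP1, all higher (10.2%, beside 6.94% of all genes).

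The median log2 fold change of the 49 tested members was -0.02 at 24 h (21 above 0, or 42.9%, beside 50% of all genes), 0.27 at 3 days (41, or 83.7%, beside 51.2%) and 0.30 at 7 days (42, or 85.7%, beside 50.1%). Between 7 and 3 days 35 were above 0 (71.4%, beside 49.6%), which became 9 without 7 day replicate 1 and 40 without 3 day replicate 1. Late against early 41 were above 0 (83.7%, beside 50.5%), with a median of 0.26. Over all genes the median was 0.01 at 3 days and nearer to 0 in the other comparisons. Without both late replicate 1 libraries the members' median was -0.02 at 3 days, with 21 of 49 above 0, 0.05 at 7 days, with 27 above 0, and 0.03 late against early, with 29 above 0. At 3 and 7 days the chaperonin median then was 0.03 and 0.14, and that of HSP90 and its cochaperones 0.05 and 0.10. The HSP70 and J protein medians were below 0, as given above. The exchange factor median was 0.12 at 3 days and -0.05 at 7 days.

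**Figure D4:**
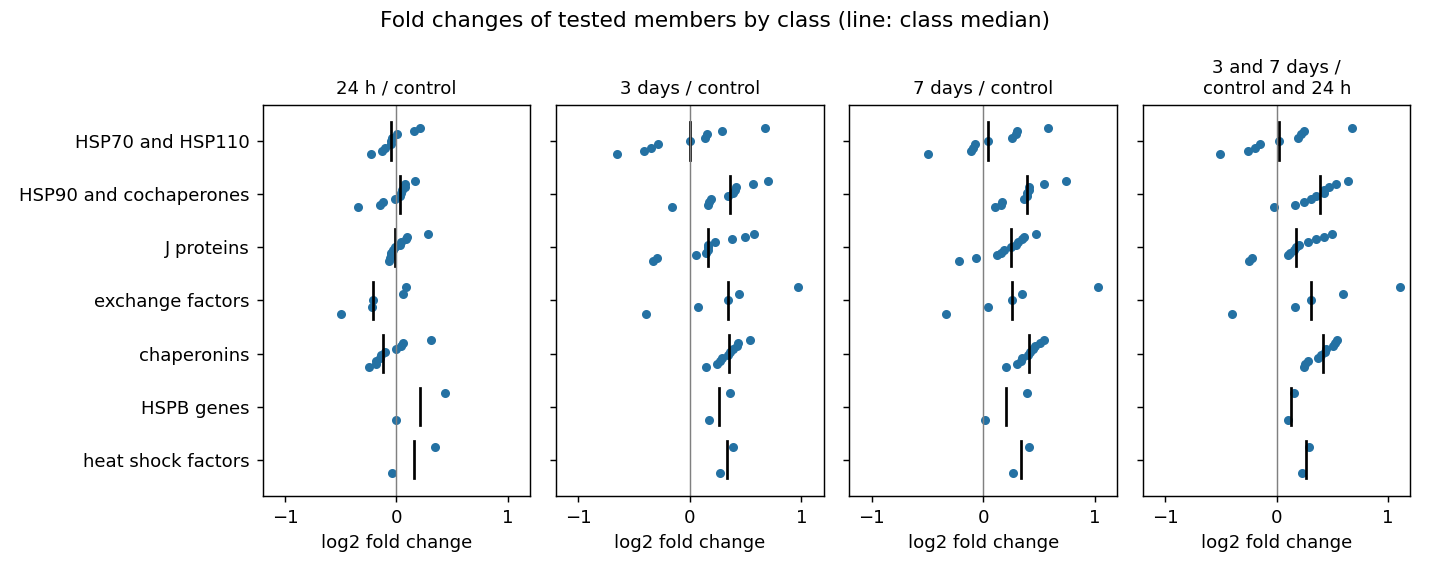
Log2 fold change of each tested member (points, by class) at 24 h, 3 days and 7 days against control and late against early (panels from left to right), with black lines at class medians. The class medians at 24 h run from -0.21 to 0.21, and those of the chaperonins at 3 and 7 days are 0.35 and 0.41.

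Library by library, the members' median lay at 0.01 and -0.25 log2 units from the gene means in control libraries, -0.31 and 0.00 at 24 h, 0.37 and -0.12 at 3 days, and 0.38 and -0.08 at 7 days. Replicate 1 exceeded replicate 2 for 44 of 49 members in controls, 9 at 24 h, 39 at 3 days and 44 at 7 days, against 49.3% to 51.4% of all genes in each. The 3 day and 7 day replicate 1 libraries were the top pair for 32 members (65.3%, beside 27.1% of all genes), and 24 h replicate 1 was lowest for 22 (44.9%, beside 17.9%). In 42 of 49 members (85.7%, beside 78.1% of all genes) the largest gap between replicates exceeded the range of the 4 group means. The exceptions were HSPA4L, TRAP1, PTGES3, CHORDC1, CCT5, CCT8 and HSPD1. The 35 ribosomal protein genes, whose library medians are given above, all had a late against early value above 0, with a median of 0.94. Of the 35, 0 were called and 32 had an unadjusted p under 0.05 (beside 6.94% of all genes higher). Without both late replicate 1 libraries the median was 0.19, with 30 of 35 above 0. The part of these ribosomal genes in the chaperone values was not tested.

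**Figure D5:**
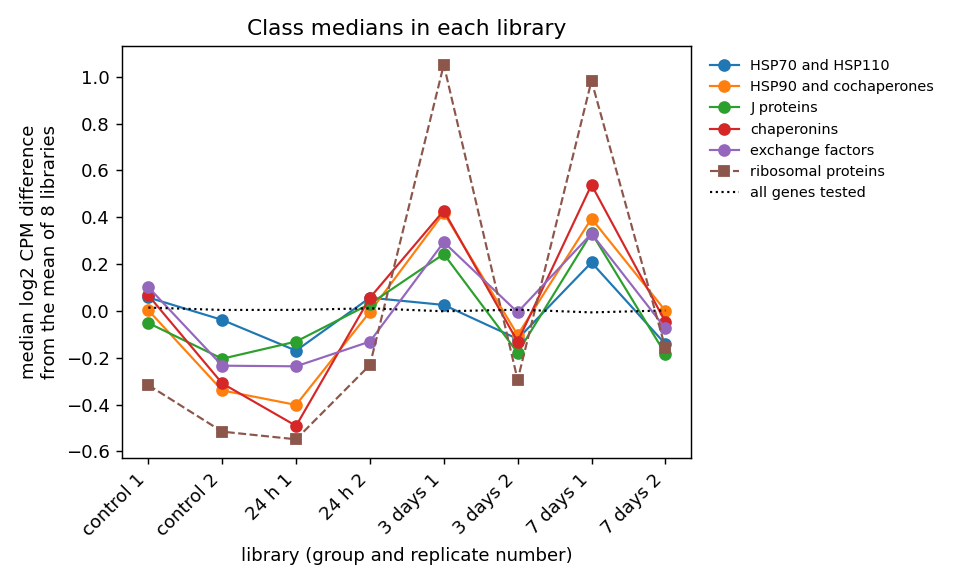
Median deviation from the gene mean (log2 units) of 5 chaperone classes, the ribosomal protein list and all tested genes in each library. The chaperonins reach 0.43 and 0.54 in the 3 day and 7 day replicate 1 libraries, and are lowest in 24 h replicate 1 at -0.49.

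Related genes outside the 50 gave few differences. Of 40 tested among 45 other HSP70 and HSP90 system genes, 24 were above 0 late against early and 0 were called, with a median of 0.08 (21 and 0.03 without both late replicate 1 libraries). DNAJC25, a J protein, at 0.72 ± 0.21 had the smallest p, with an adjusted p = 0.261 by edgeR's quasi-likelihood test. Of 16 tested prefoldin and chaperonin cofactor genes, which deliver chains to TRiC or fold tubulin, 13 were above 0 and 0 called (median 0.26). Without both late replicate 1 libraries 11 were above 0 and the median was 0.06. Of 17 mitochondrial chaperone and protease genes 11 were above 0 and 0 called (median 0.15, which turned to -0.05 with 7 above 0 without those libraries), with HSCB, a J protein of iron-sulfur cluster assembly, at 0.53 and the protease HTRA2 at -0.41. None of the 8 other small heat shock protein genes passed the filter. Of the 3 tested in the list of other heat shock factor genes, 0 were called, with HSF5 at -0.97 and the HSF1 inhibitor HSBP1 at 0.60.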

How the data were processed

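Read counts per gene symbol in 8 libraries, deposited by the authors as whole numbers with no normalization, were the only values used. Per the submitters' processing notes, the authors used GRCh37 (hg19) and the tools Bowtie2, Trim Galore, SAMtools, R 3.2.3 and DESeq2 1.8.1. Which tool counted reads, with which strand setting and annotation, is not given in the sources used here. Poly-T selected mRNA was amplified by PCR, per the labels' protocols. Each table also held 5 entries that name no gene (42.59% to 57.49% of reads), which were left out. The largest of them, reads in no annotated feature, took 51.45% of reads in 24 h replicate 1. It took 39.44% and 36.49% in the 3 day and 7 day replicate 1 libraries, and 44.4% to 47.49% in the others. Its relation to the chaperone levels was not tested.

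With edgeR 4.0.16 in R 4.3.3, genes were filtered (filterByExpr, minimum count 10, minimum total 15), scaled by TMM and fitted with the quasi-likelihood test, 1 coefficient per group over all 8 libraries. The fit had 4 residual degrees of freedom and a common biological coefficient of variation of 0.276. Benjamini-Hochberg adjustment ran over 12536 genes, with calls at 0.05. Errors are SE of log2 fold changes and intervals cover 95%. Per-kilobase levels used GENCODE 29 transcript lengths. The 50 genes made up 1.17% to 1.92% of gene counts, with Wilson 95% intervals of at most 0.00852 percentage points either side, for counting error only. Intervals on reads ignore PCR duplicates.

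Values by library were given for the 2 most abundant members of each class, the smallest p of each class and comparison, the largest fold changes, and textbook HSF1 targets. Other members named with values were chosen after their values were seen. Members and lists were chosen with earlier results of these data known, and so was the late against early contrast. Alternatives were DESeq2 1.42.0, limma-voom 3.58.1, other scalings and filters, a replicate block, leaving out each library, and leaving out both late replicate 1 libraries. The procedure was tested on simulated counts, drawn without the likeness between libraries of different groups seen here. That test therefore does not show how many changes of members were missed. A gene of the related lists that the naming rule picked is not reported here.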

Additional observations from a re-analysis of the deposited data

How the results depend on the processing

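Members called stayed at 0 under every alternative run except edgeR with no count filter. There BAG1 alone was called in the late against early contrast (1.11 ± 0.25, adjusted p = 0.012 by edgeR's quasi-likelihood test). Counts over all genes changed with the setting. DESeq2, which was also run without the count filter, called 9 genes at 3 days, 15 at 7 days and 277 late against early (90 higher). In edgeR, no count filter gave 11, 16 and 489 of 18243 genes, against 0, 0 and 1 of 12536 in the main fit. For DESeq2 the parts of tool and filter were not told apart. The late against early count was 0 with any 1 library left out, and 0 without both late replicate 1 libraries. The members' median at 3 days was -0.031 to 0.49 with each library left out in turn, lowest without 3 day replicate 1, and -0.023 without both late replicate 1 libraries; at 7 days it was 0.05 without 7 day replicate 1 and 0.53 without 7 day replicate 2. At 24 h it was -0.24 without 24 h replicate 2 and 0.14 without 24 h replicate 1. Between 7 and 3 days it was -0.20 without 7 day replicate 1 and 0.31 without 7 day replicate 2.

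Replicate numbers did not pair the samples across the 4 groups, since correlations of deviations ran from -0.60 (control with 24 h) to 0.81 (3 days with 7 days). Only the 3 and 7 day libraries resembled each other by number, over 2 pairs. A replicate block called 0 members in all 5 comparisons, and 0, 0, 0, 0 and 1 genes. Crossing the numbers at 24 h, chosen after seeing the data, gave 216 genes (93 higher) and 0 members. A replicate block on the 7 and 3 day libraries alone, also chosen after seeing the data, called 9 genes (5 higher) and 0 of 49 members, with 4 at an unadjusted p under 0.05 and a members' median of 0.05.

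Of 2811 recomputed values of named members, 2666 moved by less than 1 SE and 181 changed sign. With 2 libraries a group, a 2-fold change of HSPA8 at 24 h was not detectable, and HSPA1A, HSPB1 and BAG3 rest on few reads.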
